A study of Rattus norvegicus with 9 samples.

Results

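The TNF superfamily is a set of ligands, most of them made as trimers on the cell surface, and of the receptors that bind them. Receptors with a cytoplasmic death domain can recruit adaptors that activate caspases, and most of the other receptors bind TRAF adaptors directly and pass signals to NF-kB and MAP kinases. In bone marrow the family is known for communication between stromal and immune cells. The RANKL, RANK and osteoprotegerin genes were left out of the set described here. The members were the rows of the deposited table whose gene symbol begins with Tnfsf or Tnfrsf, or is Tnf, Lta, Ltb, Ltbr, Fas, Faslg, Cd40, Cd40lg, Cd27, Cd70, Ngfr, Eda or Edar. This gave 41 of the 33539 rows, with 39 distinct symbols because Tnf and Ltb were each listed in 2 rows. The rule uses names alone and no measured value.

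The cells were rat bone marrow mesenchymal stem cells (MSCs), adherent stromal progenitors of bone, cartilage and fat, cultured for 48 hours in SA hydrogel (so named in the labels) whose stress relaxation was fast, medium or slow. The 3 groups, Fast, Medium and Slow, held 3 samples each, all grown in low glucose DMEM with fetal bovine serum, penicillin and streptomycin. No untreated sample and no rigid culture was among the 9 samples. The labels give neither the strain and age of the rats nor separate animals or cultures for the samples, and the p-values below therefore reflect only how these libraries scatter, possibly for technical reasons. Libraries held between 14128980 and 15779328 counts, and libraries of the same gel scattered beyond counting error, with a chi-square of 2.86 to 6.38 per degree of freedom.

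Levels are given as CPM (read counts scaled to library size with TMM factors), or as the authors' FPKM where genes are compared with each other, because FPKM is divided by gene length. After the filter on low counts 23 members were measured, 7 of 19 ligand rows and 16 of 22 receptor rows. Receptors took most of the family's transcripts. The 3 highest members were all receptors: Tnfrsf12a (Fn14, the receptor of TWEAK) at a mean of 196 FPKM over the 9 libraries, Tnfrsf1a (TNF receptor 1) at 101 FPKM and Ltbr (the lymphotoxin beta receptor) at 86.5 FPKM. Tnfsf12, which encodes TWEAK, was the highest ligand at 27.2 FPKM, and Tnfsf9, which encodes 4-1BB ligand, followed in that mean at 11.2 FPKM, although in Fast Tnfsf13 (13.5 FPKM) lay above Tnfsf9 (9.95 FPKM). Ligands held 13.4 ± 0.379% of the summed member FPKM in Fast, 8.59 ± 0.263% in Medium and 8.08 ± 0.279% in Slow (n = 3 each, SD). The Fast shares lay above all others (exact two-sided permutation test, p = 0.1 against Slow and against Medium, the smallest that 3 against 3 can give). The summed member FPKM itself was lower in Fast, at 457 ± 6.5, against 525 ± 2.8 in Medium and 552 ± 5.1 in Slow. Tnfrsf12a stood at 123 FPKM in Fast, 215 FPKM in Medium and 251 FPKM in Slow. The ligand share thus depends on this receptor as well as on the ligands.

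Most calls involved Fast. In Fast over Slow 11 members rose and 3 fell of 23 (edgeR adjusted p under 0.05), where 42.9% of all 14406 tested genes were called, 21.2% higher and 21.7% lower. In Fast over Medium 11 rose and 3 fell, against 33.0% of all genes called, 15.6% higher and 17.3% lower. In Medium over Slow 1 rose, Tnfrsf14, and 1 fell, Tnfrsf12a, where 10.3% of all genes were called, 4.74% higher and 5.57% lower, so the members' share of 8.7% was near that of all genes. These comparisons share libraries and are given side by side. The median log2 difference of the 23 members was 0.35 in Fast over Slow, 0.47 in Fast over Medium and 0.02 in Medium over Slow, against 0.008, 0.009 and 0.004 for all tested genes. Edar and Tnfsf13b had 10 or more counts in the Fast libraries only and passed the filter through that group, so that they had to differ to be measured. Without them 9 of 21 members rose and 3 fell in each comparison with Fast, and the median was 0.29 in Fast over Slow and 0.25 in Fast over Medium.

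**Figure D1:**
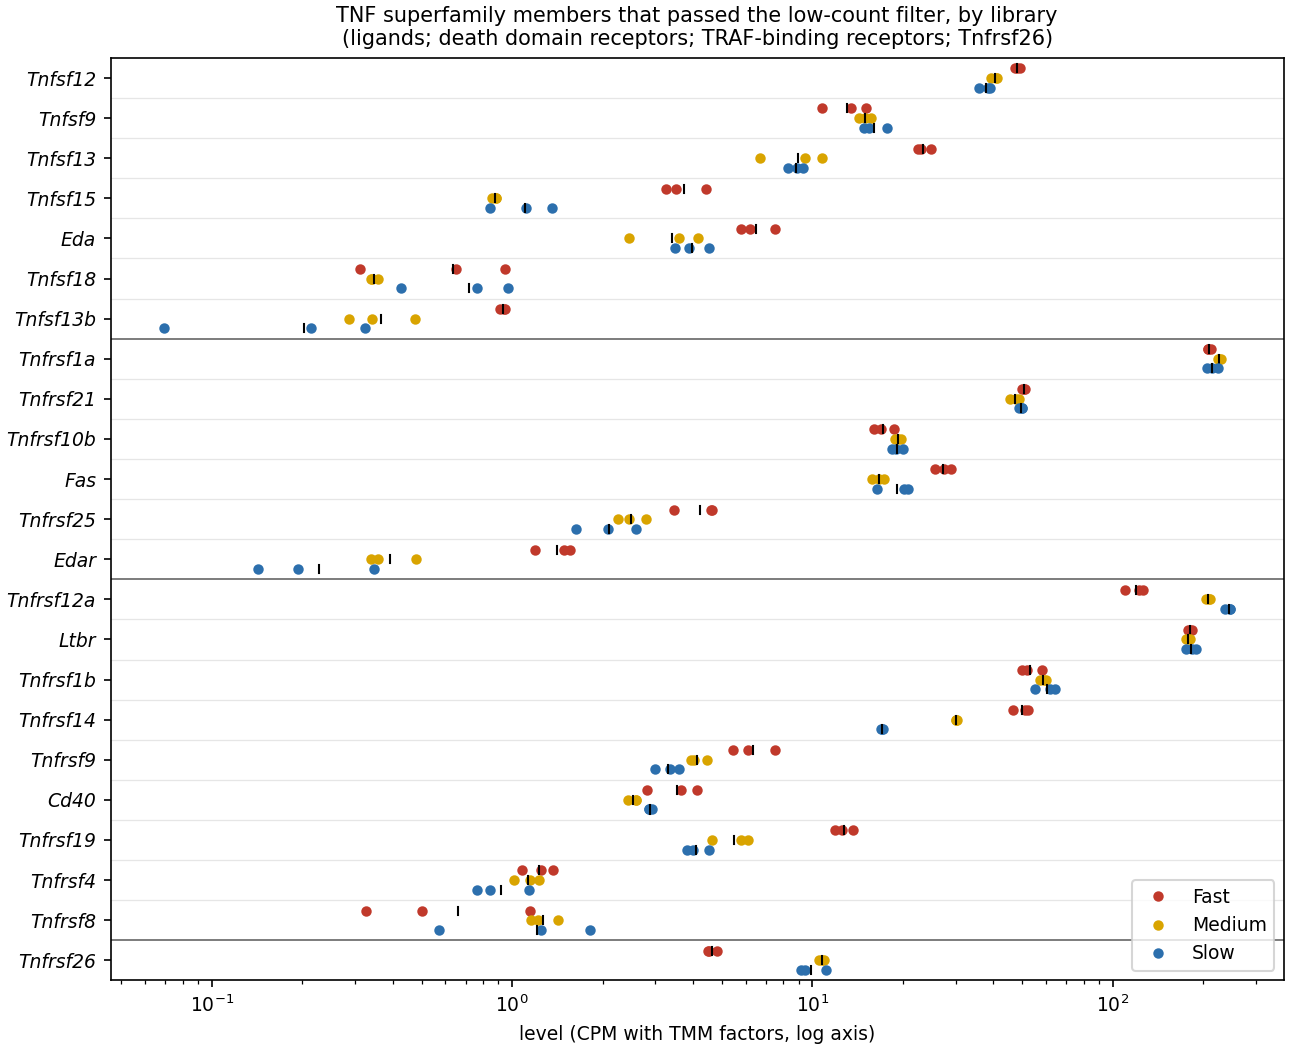
Level of each of the 23 measured members in every library (CPM with TMM factors, log axis; points are libraries, black ticks are group means, n = 3 per group), with ligands on top, then death domain receptors, TRAF-binding receptors and Tnfrsf26. Tnfrsf12a is lowest in Fast at 110 to 126 CPM, while Tnfrsf14, Tnfsf13, Tnfsf15 and Tnfrsf19 are highest there.

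Tnfrsf12a (ENSRNOG00000003546, chr10:12995904-12997930 in the deposited table) was the member with the largest fall among the abundant ones. Fn14 is a short receptor that binds TRAFs and is known as a gene induced by growth factors and injury. It stood at 110, 126 and 122 CPM in the 3 Fast libraries, at 209, 204 and 211 CPM in Medium and at 246, 246 and 236 CPM in Slow. The 3 groups did not overlap, with Fast lowest and Slow highest. The log2 difference was -1.03 ± 0.05 in Fast over Slow (SE, adjusted p = 1.33e-10), -0.80 ± 0.05 in Fast over Medium (adjusted p = 3.51e-09) and -0.22 ± 0.04 in Medium over Slow (adjusted p = 0.0041). Medium lay above the midpoint of Fast and Slow by 0.29 ± 0.04 (adjusted p = 9.42e-05), closer to Slow. Tnfrsf12a took 26.9 ± 1.53% of the summed member FPKM in Fast, 40.9 ± 0.529% in Medium and 45.5 ± 0.742% in Slow (n = 3 each, SD).

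Its ligand gene moved the other way. Tnfsf12 stood at 47.2, 49.1 and 47.8 CPM in Fast, 39.4, 41.0 and 40.8 CPM in Medium and 35.9, 38.2 and 38.9 CPM in Slow. No libraries of different gels overlapped, and the rise was small, at a log2 difference of 0.35 ± 0.05 over Slow (adjusted p = 0.000114) and 0.25 ± 0.05 over Medium (adjusted p = 0.00251). Medium and Slow differed by 0.10 ± 0.06 (adjusted p = 0.315). On the FPKM scale Tnfsf12 came to 25.3 ± 1.42% of Tnfrsf12a in Fast, 12.2 ± 0.41% in Medium and 9.73 ± 0.593% in Slow. The groups did not overlap in this ratio (exact two-sided permutation test, p = 0.1 for each pair of groups, the smallest possible).

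Tnfsf13, which encodes APRIL, a survival factor of B and plasma cells that myeloid cells are known to make, is the next gene downstream of Tnfsf12 on the same strand. The table places Tnfsf13 (ENSRNOG00000014171) on chromosome 10 from 56286887 to 56289952 and Tnfsf12 (ENSRNOG00000045670) from 56290780 to 56300077, with 827 bases between them, in a genome build not given in the sources used here. Tnfsf13 had 23.0, 24.7 and 22.4 CPM in Fast, 10.8, 9.43 and 6.66 CPM in Medium and 8.90, 8.30 and 9.29 CPM in Slow. Fast lay well above the others, while Medium and Slow overlapped and Medium replicate 3 was the lowest library. It rose by a log2 difference of 1.41 ± 0.13 over Slow (adjusted p = 8.2e-07) and 1.38 ± 0.13 over Medium (adjusted p = 1.43e-06). Tnfsf13 came to 43.4 ± 1.53% of Tnfsf12 in Fast, 19.8 ± 4.94% in Medium and 20.9 ± 1.42% in Slow (FPKM ratio, SD, n = 3). In Fast the downstream gene was thus higher relative to its neighbour (exact two-sided permutation test, p = 0.1 against either group, the smallest possible).

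Tnfsf13b (ENSRNOG00000014464, chr16:85275678-85306366), which encodes BAFF, the relative of APRIL that sustains B cells, was counted at the limit of this depth. Its counts were 14, 15 and 14 in the Fast libraries, 5, 7 and 4 in those of Medium and 3, 5 and 1 in those of Slow. It was measured only through its counts in Fast, and its log2 differences of 2.14 ± 0.52 over Slow and 1.32 ± 0.47 over Medium are given as a description. The call against Medium (adjusted p = 0.0429) was lost with DESeq2 (adjusted p = 0.121), with no filter (0.0832) and without any of Fast replicates 1 to 3, Medium replicates 1 to 3 or Slow replicate 1 (0.0562 to 0.133). The receptors of APRIL and BAFF were not measured: Tnfrsf13b (TACI) had 0 counts in all libraries, Tnfrsf13c (the BAFF receptor) 0 to 2 and Tnfrsf17 (BCMA) 0 to 6.

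Tnfsf15 (ENSRNOG00000008930, chr5:79553742-79570073) encodes TL1A, a ligand known from endothelial and myeloid cells that binds DR3, the product of Tnfrsf25. The ligand stood at 4.43, 3.25 and 3.52 CPM in Fast, 0.886, 0.882 and 0.860 CPM in Medium and 1.35, 0.843 and 1.11 CPM in Slow. Only the Fast libraries stood apart, and the log2 difference was 1.76 ± 0.26 over Slow (adjusted p = 7.92e-05) and 2.08 ± 0.27 over Medium (adjusted p = 3.09e-05). Medium was below the midpoint of Fast and Slow by 1.20 on the log2 scale (-1.20 ± 0.26, adjusted p = 0.0057). The receptor gene rose in Fast too. Tnfrsf25 stood at 3.45, 4.62 and 4.60 CPM in Fast, 2.25, 2.44 and 2.79 CPM in Medium and 1.64, 2.59 and 2.08 CPM in Slow, a log2 difference of 1.00 ± 0.23 over Slow (adjusted p = 0.00275) and 0.76 ± 0.23 over Medium (adjusted p = 0.0186). The Fast libraries lay above all others. The call against Medium was lost without Fast replicate 2 or 3 or Medium replicate 1 or 2 (adjusted p = 0.0682, 0.0635, 0.0726 and 0.0595).

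Ectodysplasin A (Eda) and its receptor gene Edar, known for the formation of hair, teeth and sweat glands, were both higher in Fast. Eda (ENSRNOG00000032208, chrX:69730242-70220329) stood at 5.79, 6.19 and 7.50 CPM in Fast, 4.16, 2.44 and 3.58 CPM in Medium and 3.49, 4.54 and 3.88 CPM in Slow. The Fast libraries lay above all others, with a log2 difference of 0.71 ± 0.21 over Slow (adjusted p = 0.0127) and 0.93 ± 0.21 over Medium (adjusted p = 0.00306). The call against Slow was lost without Fast replicate 3 (adjusted p = 0.0592) or without Slow replicate 1 (0.0506). Edar (ENSRNOG00000028598, chr20:28179140-28263037) was a low transcript, with counts of 24, 19 and 22 in the Fast libraries, 7, 5 and 5 in those of Medium and 2, 3 and 5 in those of Slow. Its log2 difference was 2.59 ± 0.44 over Slow and 1.83 ± 0.40 over Medium, given as a description because Edar was measured only through its counts in Fast. Per length Edar had the lowest mean of the 23 over all libraries, at 0.385 FPKM in Fast, 0.107 FPKM in Medium and 0.0622 FPKM in Slow, and in Fast Tnfrsf8 and Tnfsf18 were lower at 0.192 and 0.304 FPKM.

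**Figure D2:**
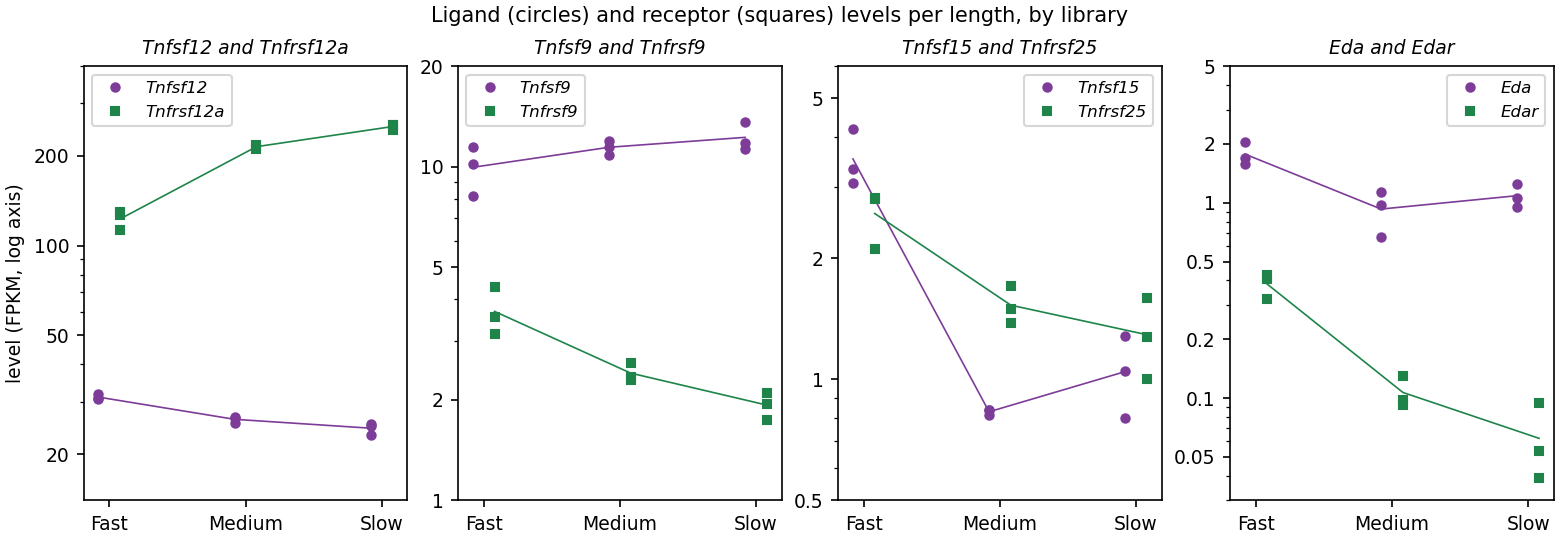
FPKM (log axis) of 4 ligand genes (circles) and their receptor genes (squares) in every library of Fast, Medium and Slow, with lines through the group means. Tnfsf12 and Tnfrsf12a diverge, Tnfrsf9 is higher in Fast while Tnfsf9 is not, and in the other pairs ligand and receptor are both higher in Fast. Edar was measured only through its counts in Fast, so its rise is given as a description.

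The remaining measured ligands were not called in any pair of groups. Tnfsf9 stood at 15.0, 10.8 and 13.4 CPM in Fast, 15.7, 15.0 and 14.3 CPM in Medium and 15.5, 17.8 and 14.8 CPM in Slow, and the groups overlapped. Its log2 difference in Fast over Slow was -0.30 ± 0.12 (adjusted p = 0.0574), and it was called with limma-voom (0.0495), with no filter (0.0439) and without Fast replicate 1 (0.0154). Its receptor gene Tnfrsf9 (4-1BB, a costimulatory receptor) rose in Fast, with 7.49, 5.44 and 6.08 CPM in Fast, 4.02, 3.93 and 4.44 CPM in Medium and 3.35, 2.98 and 3.61 CPM in Slow. Its groups did not overlap. The differences were 0.94 ± 0.18 over Slow (adjusted p = 0.000681) and 0.62 ± 0.18 over Medium (adjusted p = 0.0147, and 0.0709 without Fast replicate 1). Tnfsf18, which encodes GITR ligand, had 5 to 15 counts per library and log2 differences of -0.20 ± 0.48 in Fast over Slow and -1.05 ± 0.53 in Medium over Slow.

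Among the death domain receptors, Fas (ENSRNOG00000019142, chr1:252589785-252624790), which triggers apoptosis when bound by Fas ligand, was higher in Fast. It stood at 28.9, 25.6 and 27.3 CPM in Fast, 15.8, 17.3 and 16.7 CPM in Medium and 16.4, 20.2 and 20.8 CPM in Slow. Fast lay above the other groups, which overlapped, at a log2 difference of 0.51 ± 0.09 over Slow (adjusted p = 0.000373) and 0.72 ± 0.09 over Medium (adjusted p = 2.73e-05). Medium was below the midpoint (-0.46 ± 0.08, adjusted p = 0.00148). Tnfrsf1a, the main receptor of soluble TNF, was nearly level, at 208, 208 and 213 CPM in Fast, 228, 225 and 224 CPM in Medium and 223, 206 and 214 CPM in Slow. Fast lay just below Medium and overlapped with Slow. Its difference in Fast over Medium (-0.11 ± 0.03, adjusted p = 0.0253) was lost with upper quartile factors (0.169), with library size only (0.404), and without Fast replicate 2 or any Medium replicate (0.0524 to 0.0828). Its difference in Fast over Slow was -0.03 ± 0.03 and turned to 0.022 and 0.052 with these scalings.

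Tnfrsf21 and Tnfrsf10b, also death domain receptors, showed no call, while Tnfrsf25 and Edar are given above with their ligands. Tnfrsf21 (DR6) had group means of 50.4 ± 0.545 CPM in Fast, 47.3 ± 1.61 CPM in Medium and 49.4 ± 0.704 CPM in Slow (n = 3 each, SD), and its difference in Fast over Medium of 0.09 ± 0.05 was called with upper quartile factors (adjusted p = 0.0491) and library size only (0.0197). Tnfrsf10b, the TRAIL receptor, had 17.2 ± 1.36 CPM in Fast, 19.3 ± 0.414 CPM in Medium and 19.1 ± 0.842 CPM in Slow, with a log2 difference of -0.15 ± 0.08 in Fast over Slow (adjusted p = 0.152). Ngfr, the low-affinity neurotrophin receptor used as a surface marker of human marrow stromal cells, had 0 to 4 counts per library and was not measured.

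Of the TRAF-binding receptors, Tnfrsf14 (ENSRNOG00000013820, chr5:172328262-172335892) separated all 3 groups. It encodes HVEM, the receptor of LIGHT and BTLA. Its levels were 46.4, 50.9 and 52.2 CPM in Fast, 30.3, 30.0 and 30.0 CPM in Medium and 17.1, 17.1 and 16.8 CPM in Slow. The log2 difference was 1.55 ± 0.07 in Fast over Slow (adjusted p = 7.61e-11), 0.73 ± 0.06 in Fast over Medium (adjusted p = 3.27e-07) and 0.82 ± 0.07 in Medium over Slow (adjusted p = 1.29e-06). Medium lay 53.1% of the way from Slow to Fast on the log2 scale, and its distance from the midpoint was 0.05 ± 0.06 (adjusted p = 0.672). Among the 14 members called in Fast over Slow this position ranged from -40.0% for Fas to 53.1% for Tnfrsf14, where a negative value puts Medium beyond Slow.

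Tnfrsf19 (TROY), a receptor known from skin, brain and mesenchymal progenitors, stood at 13.7, 12.5 and 11.9 CPM in Fast, 5.79, 4.61 and 6.09 CPM in Medium and 3.99, 3.82 and 4.51 CPM in Slow. The groups did not overlap, and Fast lay furthest from the others. It rose by 1.63 ± 0.15 over Slow (adjusted p = 4.23e-07) and by 1.21 ± 0.14 over Medium (adjusted p = 1.07e-05), while Medium and Slow differed by 0.42 ± 0.15 (adjusted p = 0.105). Tnfrsf1b, the second TNF receptor and a marker of immune cells, was lower in Fast by a small margin, with 58.1, 49.7 and 51.7 CPM in Fast, 59.8, 57.2 and 59.2 CPM in Medium and 64.4, 54.8 and 61.6 CPM in Slow. Its groups overlapped, and the difference in Fast over Slow of -0.18 ± 0.07 had an adjusted p of 0.0468. That call was lost with upper quartile factors (0.164), library size only (0.284), limma-voom (0.0507), limma on log2(FPKM + 1) (0.115) and the 6 samples of the pair alone (0.0781), and without 7 of the 9 libraries, all except Fast replicate 1 and Slow replicate 2 (0.0553 to 0.188). It was called in Fast over Medium without Fast replicate 1 (0.0252).

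Ltbr, which organises lymphoid tissue and signals through the alternative NF-kB pathway, did not differ beyond its spread. Its means were 181 ± 3.23 CPM in Fast, 178 ± 2.51 CPM in Medium and 182 ± 7.41 CPM in Slow (n = 3 each, SD), with a log2 difference in Fast over Slow of -0.01 ± 0.04 that turned to 0.044 under upper quartile scaling and to 0.074 under library size alone. Cd40, the costimulatory receptor of antigen-presenting cells, had 3.53 ± 0.664 CPM in Fast, 2.53 ± 0.0855 CPM in Medium and 2.87 ± 0.0355 CPM in Slow, with no call (adjusted p = 0.272 in Fast over Slow and 0.098 in Fast over Medium). Tnfrsf4 (OX40) had 11 to 21 counts per library and no call. Tnfrsf8 (CD30) had 5, 8 and 17 counts in the Fast libraries, 17, 21 and 17 in those of Medium and 8, 28 and 18 in those of Slow. Its differences were called only without Fast replicate 3, at -1.54 over Slow (adjusted p = 0.0356) and -1.60 over Medium (adjusted p = 0.038).

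Tnfrsf26 (ENSRNOG00000043486, chr1:216808632-216828651), a receptor-like member that in the mouse lies in a cluster with decoy TRAIL receptor genes, fell in Fast. It had 4.49, 4.81 and 4.53 CPM in Fast, 10.5, 10.8 and 11.0 CPM in Medium and 9.47, 9.14 and 11.1 CPM in Slow. Fast lay below the other groups, which overlapped, by a log2 difference of -1.10 ± 0.13 against Slow (adjusted p = 6.24e-06) and -1.22 ± 0.13 against Medium (adjusted p = 3.09e-06). Medium lay above the midpoint by 0.67 ± 0.10 (adjusted p = 0.000437). In all, 5 members differed from the midpoint, Tnfrsf12a and Tnfrsf26 above and Fas, Tnfsf13 and Tnfsf15 below, where 12.1% of all genes were called, 7.20% above and 4.89% below.

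**Figure D3:**
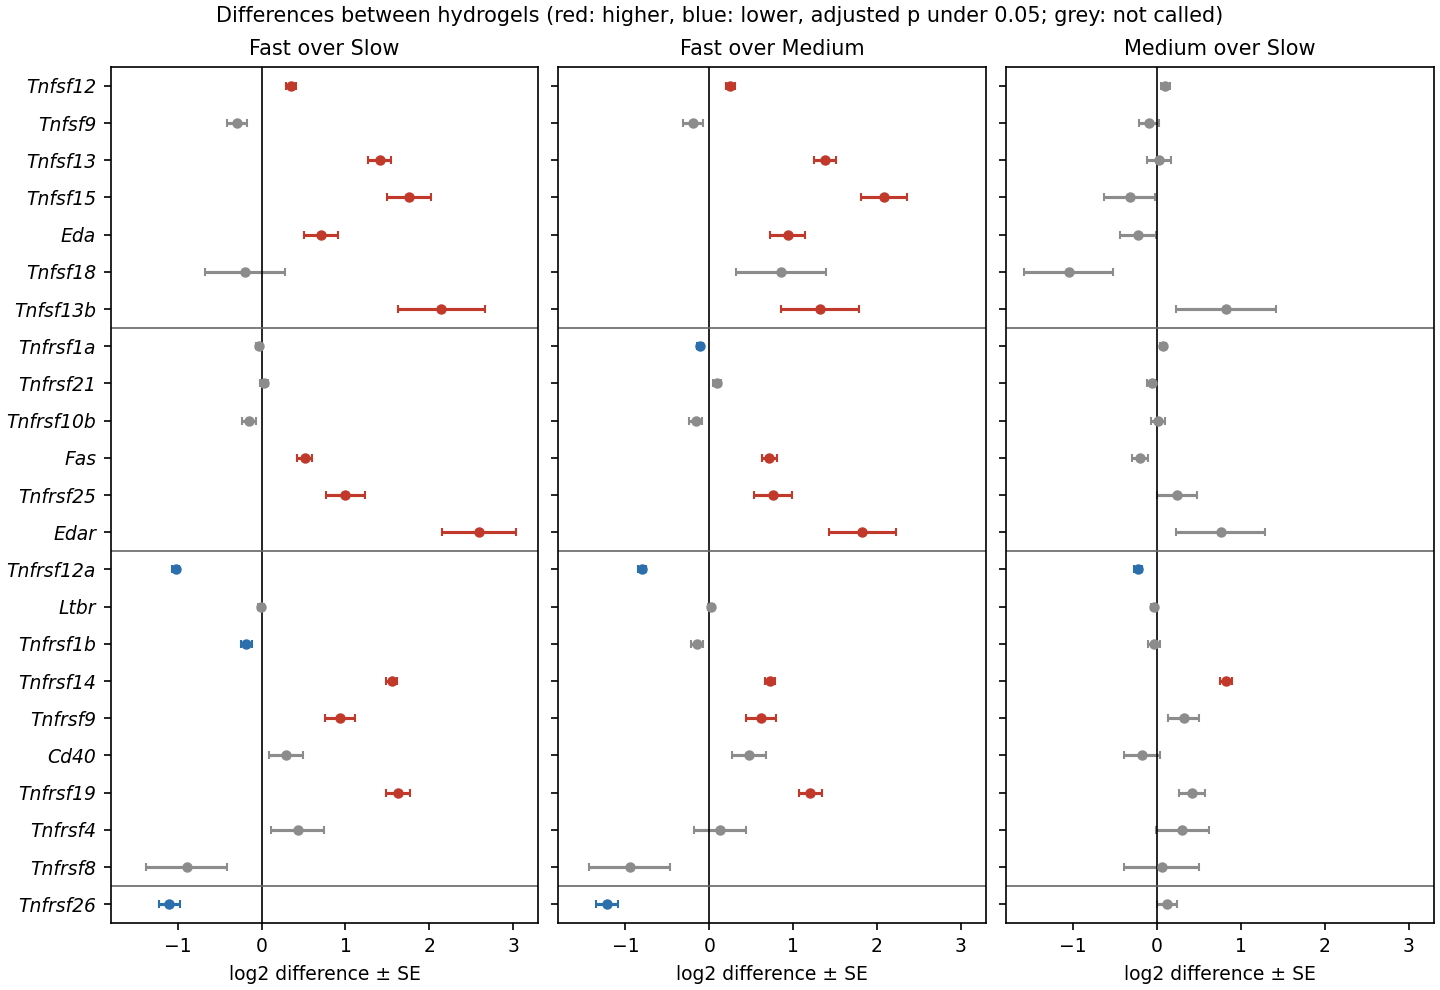
Log2 difference ± SE of each measured member in Fast over Slow, Fast over Medium and Medium over Slow (edgeR, n = 3 per group; red higher and blue lower at an adjusted p under 0.05, grey not called). In both comparisons with Fast 11 members are red and 3 blue, and in Medium over Slow Tnfrsf14 is red and Tnfrsf12a blue. Edar and Tnfsf13b, among the 11, were measured only through their counts in Fast. Of all tested genes 21.2% were higher and 21.7% lower in Fast over Slow, and 15.6% and 17.3% in Fast over Medium. In Medium over Slow 4.74% were higher and 5.57% lower.

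Promoter sequences are shown for the members that fell by more than 1 on the log2 scale in Fast over Slow, Tnfrsf12a and Tnfrsf26, and for the 3 with the largest positive differences, Edar, Tnfsf13b and Tnfsf15, so that genes that moved in opposite directions can be read side by side. Edar and Tnfsf13b were measured only through their counts in Fast, so their place among these 3 is a description. Each sequence is the 250 bases before the gene's RefSeq start in the rat build GRCr8, 5′ to 3′ on the gene's strand. The sequences lie at chr10:13213649-13213898 (minus strand), chr1:208252431-208252680 (minus strand), chr20:27209631-27209880 (minus strand), chr16:86194500-86194749 (minus strand) and chr5:82171659-82171908 (minus strand). Capitals mark the motifs searched on either strand, which were the TATA box as TATAAA, the GC box as GGGCGG, the AP-1 site as TGANTCA and a form of the NF-kB site as GGGNNTTCC. In the sequences printed no matches overlap.
Tnfrsf12a: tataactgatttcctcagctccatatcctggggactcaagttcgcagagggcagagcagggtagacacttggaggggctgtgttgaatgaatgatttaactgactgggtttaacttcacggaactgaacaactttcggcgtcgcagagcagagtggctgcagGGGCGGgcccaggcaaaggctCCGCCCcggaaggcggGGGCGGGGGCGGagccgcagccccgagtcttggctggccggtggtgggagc
Tnfrsf26: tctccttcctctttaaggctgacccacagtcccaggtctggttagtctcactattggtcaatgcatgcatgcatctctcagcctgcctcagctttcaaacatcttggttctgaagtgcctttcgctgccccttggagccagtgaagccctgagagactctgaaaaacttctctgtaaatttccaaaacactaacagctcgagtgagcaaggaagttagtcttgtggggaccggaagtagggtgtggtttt
Edar: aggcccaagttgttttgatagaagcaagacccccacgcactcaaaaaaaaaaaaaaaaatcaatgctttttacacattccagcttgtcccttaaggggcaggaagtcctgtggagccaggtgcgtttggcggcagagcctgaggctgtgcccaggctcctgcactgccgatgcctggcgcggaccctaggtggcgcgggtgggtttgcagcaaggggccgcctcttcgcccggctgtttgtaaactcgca
Tnfsf13b: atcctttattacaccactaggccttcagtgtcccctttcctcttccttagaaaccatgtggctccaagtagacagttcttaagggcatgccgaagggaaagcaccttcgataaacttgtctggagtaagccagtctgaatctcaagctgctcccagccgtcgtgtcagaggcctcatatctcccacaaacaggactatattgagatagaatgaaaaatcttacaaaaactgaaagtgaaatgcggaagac
Tnfsf15: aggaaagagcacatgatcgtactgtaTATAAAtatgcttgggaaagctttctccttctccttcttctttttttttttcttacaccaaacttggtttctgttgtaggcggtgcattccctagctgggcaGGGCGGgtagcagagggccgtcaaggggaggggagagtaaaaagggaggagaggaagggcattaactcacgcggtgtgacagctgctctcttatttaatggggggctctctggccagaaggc

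Of the 23 measured members 18 matched a RefSeq promoter; Tnfsf9, Tnfsf12, Tnfrsf10b, Tnfrsf14 and Cd40 did not. The Tnfrsf12a window held 4 GC boxes and was 60.8% G and C, while those of Tnfrsf26, Edar and Tnfsf13b held none of the motifs at 48.8%, 56.4% and 45.2%. The median over all 33469 promoters was 51.2%. GC boxes were found in 9 of the 18 members and in 30.5% of all promoters. TATAAA was found in Tnfsf15 and Tnfsf18 and in 12.9% of all promoters, and in Tnfsf15 it began 224 bases before the start. TGANTCA was found in Fas, Tnfrsf1b and Tnfrsf8 and in 6.34% of all promoters. GGGNNTTCC was found in 0 of the 18 and in 5.09% of all promoters. A match describes letters and is no evidence of a site in use, and the start used in these cells was not examined.

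For many receptors the known ligand was not measured in these cells. In all, 18 rows failed the filter. Of these, 15 had between 1 and 8 counts in their highest library, and 3, Cd40lg, Tnfrsf13b and the Ltb row ENSRNOG00000000836, had 0 counts in all 9 libraries, which allows up to 3 counts per library (0.187 to 0.215 CPM, counting error only). The classical ligand gene Tnf had 0 to 6 counts in the row ENSRNOG00000000837 and 0 to 3 in the row ENSRNOG00000055156, in contrast to the level of its receptor gene Tnfrsf1a. Because 2 rows carry the symbol, reads could have been split between them or left out, and these levels are uncertain. The first, with Lta and an Ltb row, also overlaps the listed spans of 3 RT1-CE genes, which had up to 628 counts. Tnfsf10, which encodes TRAIL, had 0 to 5 counts and Faslg 0 to 4, while their receptors Tnfrsf10b and Fas stood at 8.85 and 8.18 FPKM over all libraries. The ligands of Ltbr and HVEM were at the same floor, with 0 to 5 counts for Tnfsf14 (LIGHT) and 0 to 1 for the Ltb row ENSRNOG00000058566.

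The other members that failed the filter are mostly genes of lymphocytes. Tnfrsf18 (GITR) had 0 to 8 counts per library, with counts of 0, 0 and 7 in Slow. Cd27 had 0 to 4, Tnfsf8 (CD30 ligand) 0 to 4, Tnfsf4 (OX40 ligand) 0 to 4, Lta 0 to 2 and Cd70 0 to 2. No difference between gels was detectable for these members at this depth.

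Among the signalling genes below the receptors the shares called in Fast over Slow were near those of all genes (21.2% higher and 21.7% lower). Of all genes 15.6% were higher and 17.3% lower in Fast over Medium, and 4.74% higher and 5.57% lower in Medium over Slow. The list's share called higher in Fast over Medium and its share called lower in Medium over Slow were above these. Of 34 adaptors and kinases measured, 9 rose and 7 fell with Fast set against Slow (median log2 difference 0.05), 10 rose and 3 fell in Fast over Medium (0.13), and 0 rose and 7 fell in Medium over Slow (-0.04). The 9 higher than in Slow include Edaradd, which passed the filter through its counts in Fast, so its rise is given as a description. They also include Map3k7 (1.15 ± 0.42, adjusted p = 0.0382), in which Fast replicate 2 lay below every Slow library. Upper quartile factors gave 12 higher and 5 lower against Slow, and library size only gave 14 and 5. Tnip1, a partner of the deubiquitinase A20 that restrains NF-kB, rose to 270 ± 7.79 CPM in Fast, against 175 ± 2.60 CPM in Medium and 203 ± 3.79 CPM in Slow, a log2 difference of 0.41 ± 0.03 over Slow (adjusted p = 1.4e-07). Traf4 fell to 20.4 ± 1.33 CPM in Fast, with 26.7 ± 1.74 CPM in Medium and 32.8 ± 3.45 CPM in Slow (-0.69 ± 0.09, adjusted p = 1.54e-05). The necroptosis kinase gene Ripk3 fell by 0.32 on the log2 scale (-0.32 ± 0.05, adjusted p = 9.6e-05).

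Only 9 genes that process and release the ligands were listed, too few to set against the 21.2% higher and 21.7% lower of all genes. Among these 1 rose and 4 fell when Fast was set against Slow (median -0.13), and 2 rose and 3 fell with upper quartile factors or library size only. In Fast over Medium 2 rose and 3 fell, and in Medium over Slow 2 rose and 1 fell. Adam17, the sheddase of TNF and many of its relatives, had 189 ± 6.20 CPM in Fast, 249 ± 8.02 CPM in Medium and 255 ± 4.87 CPM in Slow (-0.43 ± 0.04 in Fast over Slow, adjusted p = 1.95e-07). Furin, the protease that cuts APRIL, BAFF, TWEAK and ectodysplasin precursors, fell by 0.56 on the log2 scale (-0.56 ± 0.04, adjusted p = 2.09e-08), to 475 ± 31.1 CPM in Fast, against 689.5 ± 9.09 CPM in Medium and 699.5 ± 9.45 CPM in Slow. Timp3, an inhibitor of ADAM17, was the gene that rose, at 60.3 ± 3.73 CPM in Fast, 47.5 ± 3.92 CPM in Medium and 24.4 ± 2.63 CPM in Slow (1.30 ± 0.08, adjusted p = 9.09e-09).

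Genes that TNF is known to induce were mostly called lower in Medium than in Slow and higher in Fast than in Medium. Of all genes 21.2% were higher and 21.7% lower in Fast over Slow. These shares were 15.6% and 17.3% in Fast over Medium, and 4.74% and 5.57% in Medium over Slow. Only 10 NF-kB subunits and inhibitors were listed, too few to set against such shares. Of these 10, 2 rose and 3 fell with Fast set against Slow (median 0.03, and 4 and 2 with library size only). In Fast over Medium 6 rose and 1 fell (0.14), and in Medium over Slow 0 rose and 3 fell (-0.14). Nfkbie and Bcl3 rose in Fast over Slow, by 0.46 ± 0.06 (adjusted p = 1.92e-05) and 0.33 ± 0.05 (adjusted p = 0.000185), and Nfkbiz fell (-0.48 ± 0.04, adjusted p = 1.62e-07). Of 29 measured TNF-inducible genes, 9 rose and 10 fell with Fast set against Slow (median 0.06), 20 rose and 5 fell in Fast over Medium (0.31), and 0 rose and 19 fell in Medium over Slow (-0.35). With library size only the split against Slow was 13 higher and 7 lower, and with upper quartile factors 12 and 8. Relative to the midpoint of Fast and Slow, 19 of the 29 were lower in Medium and 2 were higher, where 4.89% and 7.20% of all genes were. The members with the smallest p in Fast over Slow were Ptgs2 (-2.71 ± 0.04), Mmp9 (-0.91 ± 0.03) and Mmp13 (1.46 ± 0.04), each with an adjusted p of at most 1.77e-12, so single genes of this list moved in opposite directions. Some genes stand in more than 1 of these lists.

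**Figure D4:**
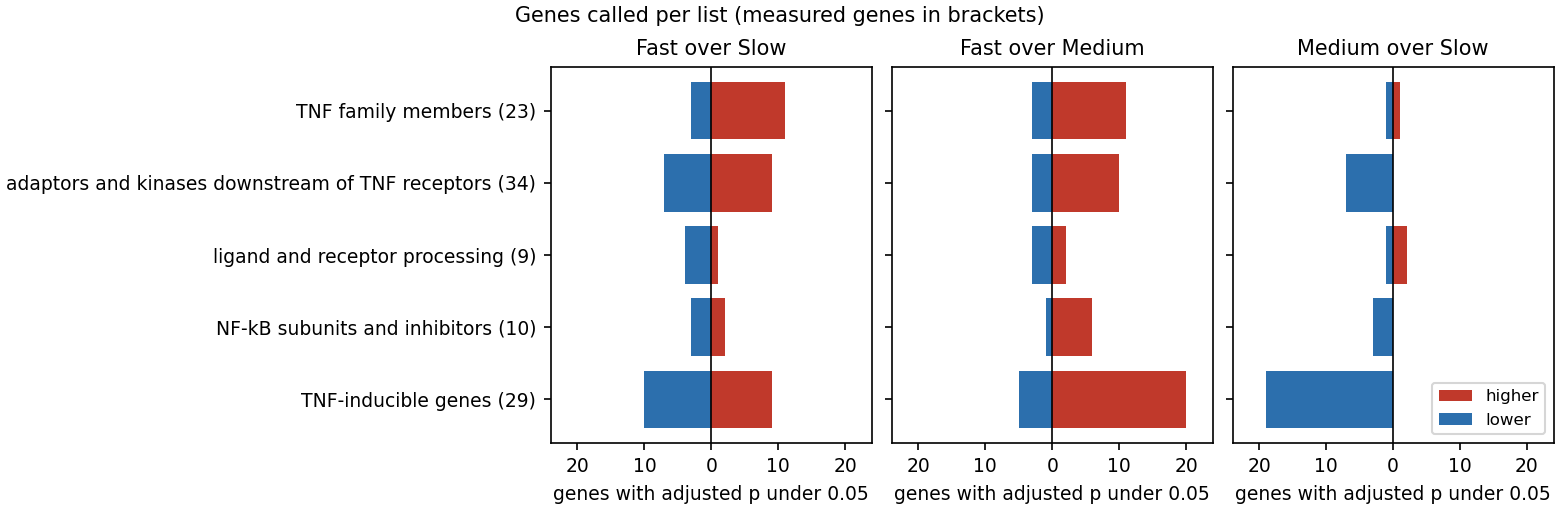
Number of genes with an adjusted p under 0.05, higher (red, to the right) or lower (blue, to the left), among the 23 measured members and in 4 lists of other pathway genes, for Fast over Slow, Fast over Medium and Medium over Slow. TNF-inducible genes show 19 lower and 0 higher in Medium over Slow and 20 higher and 5 lower in Fast over Medium. Of all tested genes 5.57% were lower and 4.74% higher in Medium over Slow, and 15.6% higher and 17.3% lower in Fast over Medium.

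Markers of other cells moved with the gels. Of 20 measured myeloid markers, 16 rose and 2 fell in Fast over Slow, where 21.2% of all genes were higher and 21.7% lower. The summed myeloid level was 3131 to 3306 CPM in Fast, 2189 to 2203 CPM in Medium and 1865 to 1947 CPM in Slow. The macrophage genes Adgre1, Lyz2 and Aif1 rose by 1.07 ± 0.03, 1.48 ± 0.03 and 1.64 ± 0.08, and Csf1r by 0.69 ± 0.05 (adjusted p at most 3.54e-08). Ptprc, the pan-leukocyte gene CD45, did not follow, at 35.5 ± 0.927 CPM in Fast, 32.1 ± 2.86 CPM in Medium and 35.2 ± 1.21 CPM in Slow (0.01 ± 0.07, adjusted p = 0.904). The 2 that fell were Cd14 (-0.27 ± 0.03, adjusted p = 6.72e-06) and Itgam (-0.18 ± 0.03, adjusted p = 0.000557). The 3 myeloid markers not measured were Cd74, Ccr2 and Cx3cr1, the last 2 with at most 1 and 2 counts. Several members that were higher in Fast, among them Tnfsf13, Tnfsf13b, Tnfsf15 and Tnfrsf14, are known from myeloid cells, and the part of the myeloid transcripts in their differences was not tested. In bulk samples fewer cells of a type and less RNA per cell cannot be told apart.

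Lymphocytes and endothelium left few transcripts. Of 15 lymphoid markers Cd3d, Cd3g, Cd79b and Ms4a1 had 0 counts in all libraries, Cd3e had at most 1, and 4 were measured, of which 3 rose in Fast over Slow. These were Cd4, which rat macrophages also carry, at 51.5 ± 3.42 CPM in Fast, 34.8 ± 2.53 CPM in Medium and 23.5 ± 0.626 CPM in Slow, and the low transcripts Cd8a and Cd8b. Cd8a had 0.908 ± 0.143 CPM in Fast, 0.321 ± 0.136 CPM in Medium and 0.115 ± 0.0809 CPM in Slow. Cd8b had 1.51 ± 0.272, 0.364 ± 0.304 and 0.334 ± 0.256 CPM. Both passed the filter through their counts in Fast, so their rise is given as a description. The summed lymphoid level was 51.5 to 58.7 CPM in Fast, 34.7 to 40.6 CPM in Medium and 24.1 to 26.5 CPM in Slow. Cd4 made up most of this sum in every library, so its differences are mainly those of Cd4. Of 5 measured endothelial markers 1, Esam, rose (0.44 ± 0.08, adjusted p = 0.000581). The 4 lymphoid and 5 endothelial genes measured are too few to set against the 21.2% higher and 21.7% lower of all genes. Tie1 and Egfl7 differed by 0.25 ± 0.12 and -0.13 ± 0.13 without a call (adjusted p = 0.093 and 0.439). Cldn5 was at 0 and Cdh5 had at most 4 counts. All 14 stromal markers were measured. In Fast over Slow 5 rose, among them Cxcl12 (2.27 ± 0.03) and Pdgfrb (0.84 ± 0.03), and 7 fell, among them Nt5e (-1.65 ± 0.04), beside the same shares of all genes. The stromal list summed to 20933 to 22543 CPM in Fast, 15738 to 16013 CPM in Medium and 14253 to 14356 CPM in Slow. Col1a1, a collagen gene, made up most of this sum at 16364, 11364 and 9302 CPM in Fast, Medium and Slow. Without it the other 13 summed to 5459 to 5637 CPM in Fast, 4518 to 4550 CPM in Medium and 4997 to 5013 CPM in Slow, so that Medium lay below Slow.

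**Figure D5:**
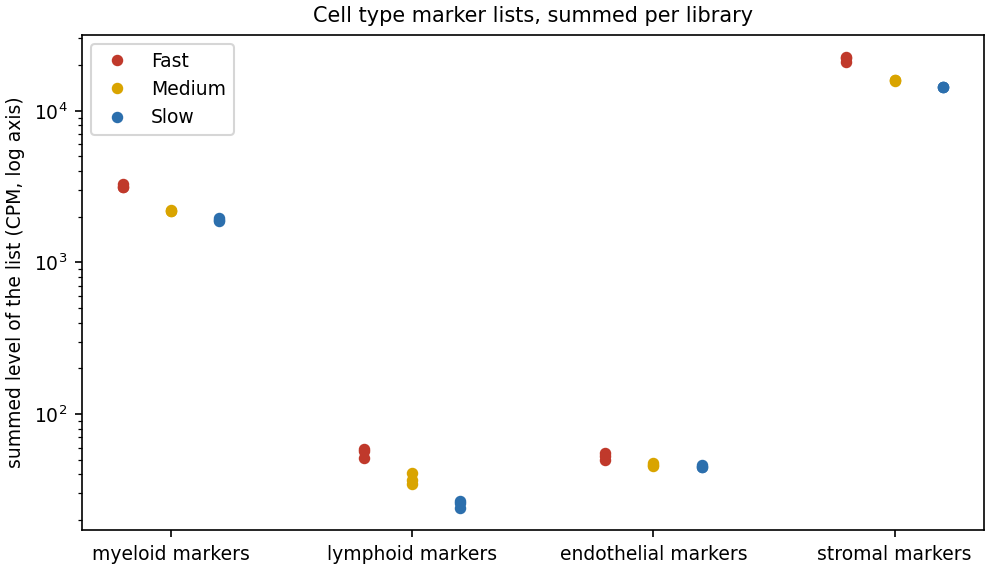
Summed level of each cell type marker list in every library (CPM, log axis; points are libraries, n = 3 per group). Myeloid markers sum to 3131 to 3306 CPM in Fast, 2189 to 2203 CPM in Medium and 1865 to 1947 CPM in Slow, and lymphoid and endothelial markers stay under 60 CPM in every library.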

How the data were processed

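The mRNA libraries were built with a QIAGEN single cell kit and sequenced by Illumina protocols, per the labels' protocols. Bowtie 0.12.9, Cufflinks 2.1.1 and HTSeq appear in the submitters' processing notes without a role, next to the mouse build mm10, although the identifiers are rat Ensembl genes. Neither the build of the coordinates nor the handling of strand is given in the sources used here. The deposited table holds for every gene raw read counts and FPKM values made by the authors, per the file headers, and 0 of its per-sample columns lacked a sample.

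The counts were filtered with filterByExpr (minimum count 10 in 3 samples), which kept 14406 genes with 99.91% of all counts. TMM factors and edgeR 4.0.16 (glmQLFTest, R 4.3.3) were used in a single model of the 9 samples. The SE is the size of the log2 difference over the square root of F. P-values were adjusted over all genes kept (Benjamini-Hochberg, threshold 0.05). Medium was also compared with the mean of the Fast and Slow coefficients, called the midpoint. The procedure was tested on simulated data beforehand. Members called between at least 1 pair of groups are described by library, the other measured members by range or mean, and from each list the 3 genes with the smallest p in Fast over Slow. Csf1r, Ptprc, Itgam, Cd14 and Col1a1 were named after their values were seen. The members and lists were chosen with earlier results of these data known.

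Alternatives were median-of-ratios, upper quartile or no factors, DESeq2 1.42.0, limma-voom and limma 3.58.1 on log2(FPKM + 1), other filters (1 count in total, or 1 CPM in 3 samples), the 6 samples of a pair, a replicate block and leaving out each library. Floors cover counting error only.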

Additional observations from a re-analysis of the deposited data

How the results depend on the processing

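Counts of called members held within 1.5 times, except that 5 members in place of 3 lay below the midpoint in Medium with library size only. Without 1 library, 12 to 15 members were called in Fast over Slow (10 to 11 higher, 2 to 4 lower), 11 to 14 in Fast over Medium (9 to 11 higher, 2 to 4 lower), 2 in Medium over Slow and 5 to 6 against the midpoint. With all libraries the shares of all genes called were 42.9%, 33.0%, 10.3% and 12.1% in the same order. Of the 30 calls of single members in pairs of groups, 24 held under all alternatives run and 0 reversed. The 24 include both calls of Edar and that of Tnfsf13b in Fast over Slow, members measured only through their counts in Fast. Tnfsf13b did not pass the filter of 1 CPM in 3 samples and was not tested there. The calls of Tnfrsf1a, Tnfrsf1b, Tnfrsf9, Tnfrsf25, Tnfsf13b and Eda that were lost are given with those genes, apart from that under the replicate block. Leaving out Edar and Tnfsf13b, chosen after seeing the data, left 12 of 21 members called in each comparison with Fast. Beside these stand the 42.9% of all genes called in Fast over Slow and the 33.0% in Fast over Medium. Some differences not called became calls, also given with those genes (Tnfsf9, Tnfrsf8, Tnfrsf1b and Tnfrsf21). The cause was not tested. The pair of groups alone was not run for the midpoint.

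Differences that were not called changed sign as follows. With upper quartile factors and library size only, Fast over Slow became 0.022 and 0.052 for Tnfrsf1a and 0.044 and 0.074 for Ltbr. With limma on log2(FPKM + 1), Medium over Slow became -0.003 for Tnfsf13. Without 1 library, Fast over Slow ranged between -0.042 and 0.016 for Ltbr and between -0.587 and 0.137 for Tnfsf18. Likewise Medium over Slow ranged between -0.101 and 0.014 for Tnfrsf1b, -0.017 and 0.046 for Tnfrsf10b, -0.13 and 0.194 for Tnfsf13, and -0.274 and 0.473 for Tnfrsf8.

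The replicate numbers showed no sign of pairing the samples, which does not exclude a pairing. Deviations of same-numbered libraries correlated between -0.032 and 0.046, and those of differently numbered libraries between -0.065 and 0.048. With the replicate block 14 members were called in Fast over Slow, 13 in Fast over Medium and 2 in Medium over Slow; the difference of Tnfsf13b in Fast over Medium then had an adjusted p of 0.0619. At this depth a member under 10 counts in every library cannot be compared.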
